A study of Mus musculus with 31 samples.

Results

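The genes described here were 40 mouse genes of the endoplasmic reticulum (ER), chosen by name as a list of chaperones, co-chaperones, disulfide-forming enzymes, stress sensors, degradation factors and parts of the protein translocation and signal peptide machinery. All 40 were among the 24302 symbols of the deposited expression table. Of these, 39 reached 1 FPKM (fragments scaled to transcript length and library size) in at least 1 library, and 38 passed the filter for testing, of 10327 genes tested in all. Pdia5, a disulfide isomerase, reached 1 FPKM in fewer than 3 libraries and was not tested. Derl3, a Derlin of the degradation pathway, never rose above 0.12 rescaled FPKM, so it was skipped.

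The libraries were made from total RNA, with a stranded kit, from peritoneal macrophages. These came from C57BL/6 mice, 8.5 weeks old, 4 days after 3% thioglycollate, and were kept overnight in culture. The mice were controls or PPARgammaMPKO animals, which the labels describe as a macrophage knockout of PPARγ and which are called KO here. The promoter that drives Cre, the deleted part of Pparg and the full genotype of the controls are not stated in the sources used here. Cells of each genotype were left untreated or received DMSO, 1 uM rosiglitazone (an agonist of PPARγ, against an equal volume of DMSO) or 20 ng/mL IL4 for 24 h. There were 4 libraries in each of the 8 groups, except 3 for KO cells with rosiglitazone, or 31 libraries in all.

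Secreted and membrane proteins enter the ER through the Sec61 channel, lose their signal peptide, and fold with the help of chaperones such as BiP (Hspa5) and of protein disulfide isomerases. When unfolded proteins accumulate, the sensors IRE1 (Ern1), ATF6 and PERK start the unfolded protein response, in which spliced XBP1, cleaved ATF6 and ATF4 raise transcription of chaperone and degradation genes. Macrophages exposed to IL4 take up an alternatively activated state and secrete a characteristic set of proteins.

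The ER stress response element (ERSE), a promoter sequence known to bind NF-Y together with ATF6 or XBP1, lies near the start of part of these genes. In the RefSeq promoter windows of GRCm38.p6, which run from 250 bases before to 50 bases after the annotated start, 31 of the 40 genes were found. The full element, CCAAT and CCACG with any 9 bases between them, searched on both strands, was present in 10 of these 31 (32.3%), against 0.119% of all 32851 windows. The 11 elements of these 10 genes are shown, and the other 21 windows lack the full element. They are written 5′ to 3′ on the strand that holds the element, with the fixed bases in capitals.
Hspa5: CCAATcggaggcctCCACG
Hsp90b1, distal: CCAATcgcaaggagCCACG
Hsp90b1, proximal: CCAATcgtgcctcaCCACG
Calr: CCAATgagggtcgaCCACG
Canx: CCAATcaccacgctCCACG
Creld2: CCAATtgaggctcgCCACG
Dnajc3: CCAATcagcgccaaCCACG
Pdia6: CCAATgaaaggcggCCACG
Ero1lb: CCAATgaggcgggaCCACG
Syvn1: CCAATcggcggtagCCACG
Derl3: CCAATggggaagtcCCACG

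Its shorter part CCACG, which also lies inside the full element and inside the related element ERSE-II, was present in 26 of the 31 windows (83.9%) and in 32.8% of all windows. ERSE-II, which is ATTGG and CCACG with any 1 base between them, was found in 2, Herpud1 and Dnajb11 (6.5% against 0.0365%). The XBP1-type core TGACGTGG was in none of the 31 windows and in 0.676% of all. The STAT6-type sequence, TTC and GAA with any 4 bases between them, named for the factor that IL4 activates, was in 2 windows, Sec61g and Pdia5 (6.5% against 6.95%). Each search covered both strands. These counts describe letters in short windows. They do not show binding, and a missing match shows only that the letters are absent from the window. The set was chosen by name as ER genes, so its shares beside those of all windows are a description and not a test.

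The windows of 3 genes with different responses are shown whole. Hspa5 (chr2:34771840-34772139, plus strand) carries the full element, in capitals, at bases -65 to -47 from the start.
Hspa5: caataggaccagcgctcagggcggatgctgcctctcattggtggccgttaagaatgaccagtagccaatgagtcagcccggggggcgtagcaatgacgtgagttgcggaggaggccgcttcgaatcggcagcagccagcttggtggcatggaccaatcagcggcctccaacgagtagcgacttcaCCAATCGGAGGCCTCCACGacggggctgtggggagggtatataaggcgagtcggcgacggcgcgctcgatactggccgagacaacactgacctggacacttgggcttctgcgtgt
Pdia4 (chr6:47813463-47813762, minus strand), the gene of the set with the largest IL4 difference, holds no full element and 1 CCACG, in capitals.
Pdia4: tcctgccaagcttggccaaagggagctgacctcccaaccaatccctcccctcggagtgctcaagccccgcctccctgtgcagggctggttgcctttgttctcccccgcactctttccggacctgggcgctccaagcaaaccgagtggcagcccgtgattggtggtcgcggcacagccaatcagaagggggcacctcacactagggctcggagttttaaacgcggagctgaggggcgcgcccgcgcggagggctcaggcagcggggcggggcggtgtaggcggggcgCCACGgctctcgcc
Edem1 (chr6:108828391-108828690, plus strand), whose libraries with and without IL4 overlapped, holds 2 CCACG on opposite strands, in capitals.
Edem1: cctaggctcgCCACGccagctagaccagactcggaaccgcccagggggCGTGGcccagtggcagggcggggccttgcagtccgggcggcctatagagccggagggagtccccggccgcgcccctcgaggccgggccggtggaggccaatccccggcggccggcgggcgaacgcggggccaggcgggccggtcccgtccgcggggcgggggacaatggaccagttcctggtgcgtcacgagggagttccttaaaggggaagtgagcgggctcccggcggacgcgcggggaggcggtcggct

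Levels below are FPKM rescaled so that the libraries share a common median ratio over the tested genes. In untreated control cells Calr (226 ± 17.7, SD, n = 4), a calcium-binding lectin chaperone, was the highest of the set, followed by Hspa5 (186 ± 5.94) and P4hb (183 ± 10.5), the main disulfide isomerase. The ranges of Hspa5 and P4hb overlapped. Syvn1 (3.53 ± 0.287), a ubiquitin ligase, and Ern1 (4.36 ± 0.575) were the lowest of the tested genes.

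Expression of the set rose with IL4 in both genotypes. In control cells 29 of the 38 tested genes were higher than in untreated cells and 0 were lower, where 11.9% of all tested genes were higher and 11.1% lower. In KO cells 28 were higher and 0 lower, where 10.1% of all genes were higher and 9.38% lower. The set was chosen with earlier results of these data known, so its excess over these shares is a description and not a test. The same 27 genes passed in both genotypes and 8 passed in neither. The median log2 difference of the 38 genes was 0.59 in both genotypes, and that of all tested genes was 0.00 in control cells and 0.01 in KO cells. The test was limma, the threshold an adjusted p of 0.05 over all 10327 genes, and log2 differences are of rescaled FPKM + 1, given with their standard error.

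Without the rescaling of libraries, 10 genes instead of 29 passed in control cells and 25 instead of 28 in KO cells, all of them higher. Those 10 were Hspa5, Hsp90b1, Hyou1, Calr, Dnajc3, Sdf2l1, Creld2, Manf, Pdia4 and Pdia6. In bulk RNA a different level per cell and a different share of cells that express a gene cannot be told apart.

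**Figure D1:**
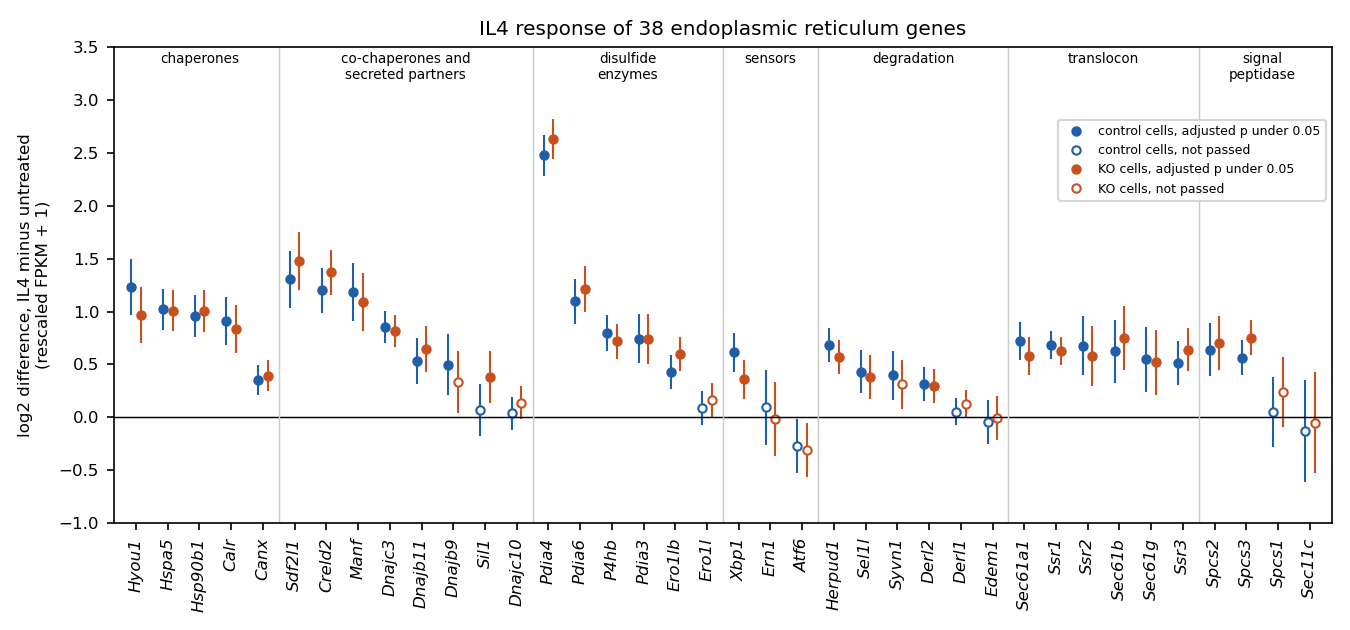
Log2 difference of each tested gene between IL4 and untreated cells (y axis, rescaled FPKM + 1), by role of the gene product, in control (blue) and KO (orange) cells; bars are 95% intervals and filled points passed at an adjusted p under 0.05. Pdia4 stands highest in both genotypes, at 2.48 and 2.63, and all filled points lie above 0.

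Summed over the set, rescaled FPKM was 1788.2 ± 53.9 in untreated control cells (SD, n = 4) and 3015.2 ± 105 with IL4. In KO cells the sums were 1793.9 ± 223 and 3042.1 ± 322. The lowest library with IL4, at 2660.1, stood above the highest without it, at 2046.9. The set held a mean of 0.698% of all listed FPKM in untreated control cells and 1.15% with IL4. The spread between KO libraries was wider than between control libraries in both conditions.

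**Figure D2:**
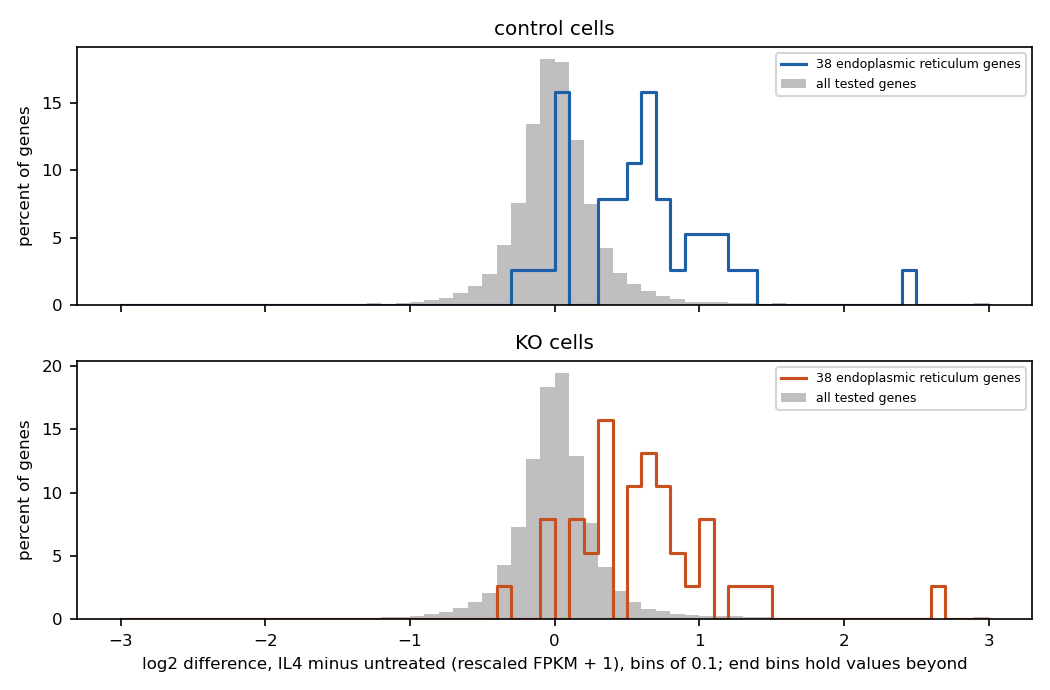
Percent of genes (y axis) in bins of 0.1 of the log2 difference between IL4 and untreated cells (x axis), for the 38 tested ER genes (line) and all 10327 tested genes (grey), in control (top) and KO cells (bottom). All tested genes centre on 0, while the ER genes have a median of 0.59 in each genotype.

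The 5 lumenal and membrane chaperones all rose in both genotypes. Hspa5, the central ER chaperone, was at 192, 187, 186 and 178 in untreated control cells and at 379, 344, 401 and 390 with IL4. The KO values were 218, 180, 151 and 197 untreated and 436, 359, 320 and 384 with IL4. Every IL4 library lay above every untreated one. The log2 difference was 1.02 ± 0.09 in control cells (adjusted p = 3.528e-09) and 1.01 ± 0.09 in KO cells (adjusted p = 4.857e-09).

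Hyou1, a nucleotide exchange factor for BiP, rose from a mean of 15.3 ± 1.10 to 37.3 ± 3.11 in control cells and from 16.8 ± 2.77 to 33.7 ± 5.22 in KO cells (SD, n = 4). Hsp90b1, the ER form of HSP90, rose by 0.95 ± 0.10 and 1.00 ± 0.10 on the log2 scale in control and KO cells. For Calr the differences were 0.91 ± 0.11 and 0.83 ± 0.11. Canx, the membrane-bound lectin relative of Calr, had the smallest response of the 5, at 0.35 ± 0.07 (adjusted p = 0.000487) and 0.39 ± 0.07 (adjusted p = 0.000152), with no overlap between IL4 and untreated libraries. Both Canx calls were lost without rescaling (adjusted p = 0.664 in control and 0.05123 in KO cells).

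Among the 8 tested co-chaperones and small ER partners, 6 rose in each genotype. Sdf2l1, a partner of ER DnaJ proteins, was at 36.9, 32.8, 32.7 and 31.6 in untreated control cells and at 81.6, 83.4, 91.5 and 80.1 with IL4. Without IL4 the KO libraries were at 39.8, 35.7, 27.2 and 40.0, and with it at 115, 98.6, 83.9 and 104. The groups did not overlap in either genotype, and the log2 differences were 1.30 ± 0.13 (adjusted p = 1.873e-08) and 1.48 ± 0.13 (adjusted p = 2.132e-09).

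Creld2, an ER protein with disulfide isomerase-like activity, rose from between 8.34 and 9.60 to between 20.0 and 24.4 in control cells. In KO cells it rose from between 7.75 and 11.4 to between 23.7 and 31.3. Its log2 differences were 1.20 ± 0.10 (adjusted p = 8.35e-10) and 1.37 ± 0.10 (adjusted p = 6.459e-11). Manf, a secreted factor retained in the ER, rose by 1.19 ± 0.13 and 1.09 ± 0.13. Dnajc3, a DnaJ co-chaperone and inhibitor of the kinase PERK, rose by 0.86 ± 0.07 and 0.82 ± 0.07, and Dnajb11, another DnaJ partner of BiP, by 0.53 and 0.64.

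The other 3 co-chaperones were less even. Dnajb9, a DnaJ protein that binds IRE1, rose in control cells by 0.50 ± 0.14 (adjusted p = 0.01058), and its difference in KO cells was 0.33 ± 0.14 (adjusted p = 0.09932). The Dnajb9 call in control cells was lost without rescaling (adjusted p = 0.4162). Sil1, an exchange factor for BiP, had a difference of 0.07 in control cells and rose by 0.38 ± 0.12 in KO cells (adjusted p = 0.02328). This Sil1 call was lost without rescaling (adjusted p = 0.07741), without the 3 libraries of low FPKM sum (0.22, adjusted p = 0.3497), when only the groups compared were fitted (adjusted p = 0.1603), and without any 1 of KO untreated 2 or 3 or KO IL4 1 or 4 (adjusted p from 0.05619 to 0.1053). The difference of the Sil1 response between genotypes was 0.31 ± 0.17 and did not pass. Dnajc10, a reductase with a DnaJ domain, had differences of 0.04 and 0.14, which did not pass. In a block by replicate number that took the KO rosiglitazone libraries as mice 2 to 4, Dnajb9 (adjusted p = 0.006025) and Dnajc10 (adjusted p = 0.02243) passed in KO cells, and the count of the set there was 33 in place of 28. With the numbers as titled neither passed, and the count was 30.

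**Figure D3:**
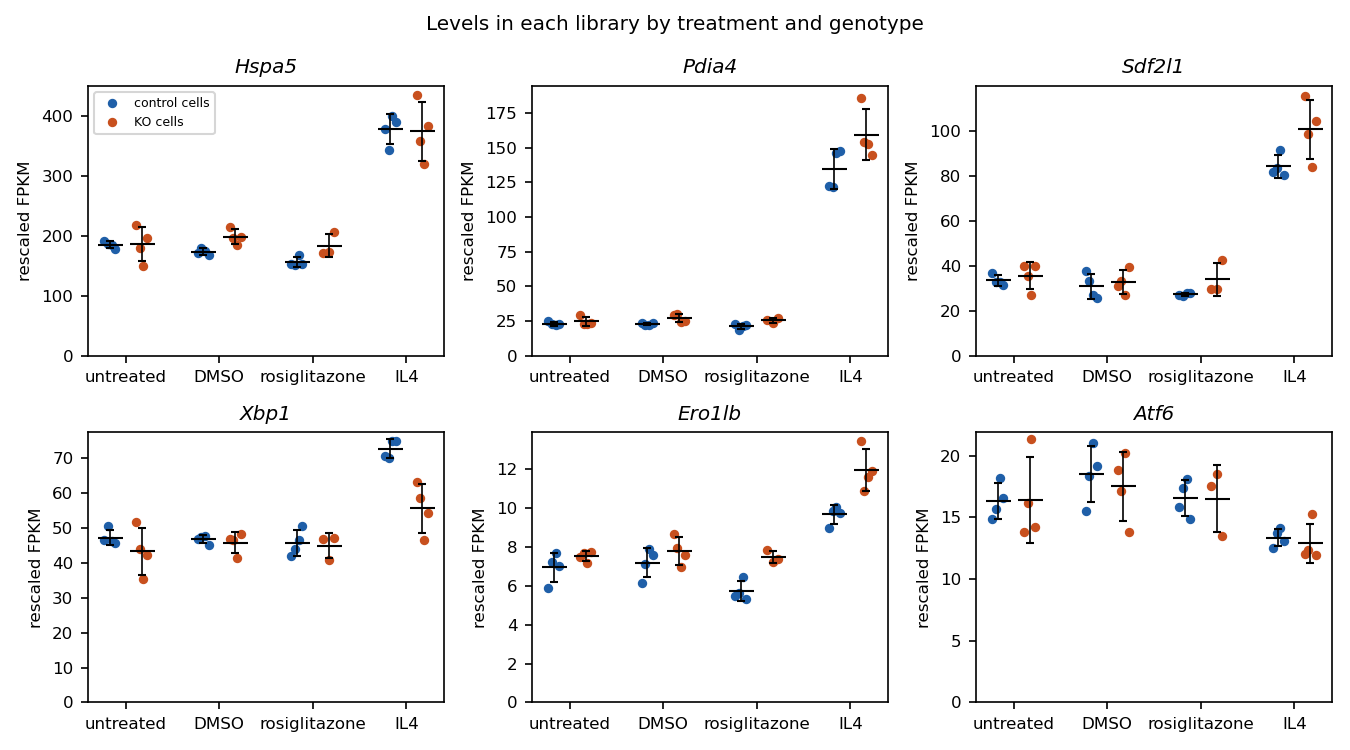
Rescaled FPKM (y axis) of 6 genes in every library, by treatment (x axis) in control (blue) and KO (orange) cells; points are libraries, long bars means and whiskers SD. The IL4 libraries of Hspa5, Pdia4 and Sdf2l1 lie above all others, and Xbp1 with IL4 is lower in KO than in control cells.

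Of 6 tested disulfide enzymes, 5 rose in each genotype, led by Pdia4, a disulfide isomerase of the chaperone complex around BiP. Pdia4 was at 25.3, 22.9, 22.1 and 22.7 in untreated control cells and at 122, 122, 146 and 148 with IL4. KO libraries had 29.7, 23.1, 23.1 and 23.7 untreated and 186, 154, 152 and 144 with IL4. Every IL4 library lay above every untreated one, in both genotypes.

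The ratio of Pdia4 means was 5.78 in control and 6.39 in KO cells. Its log2 differences of 2.48 ± 0.09 (adjusted p = 1.43e-17) and 2.63 ± 0.09 (adjusted p = 4.59e-18) ranked 27 and 21 from the highest of all 10327 tested genes. Over the 38 genes the ratio of means ran from 0.819 to 5.78 in control cells, with a median of 1.54 and 7 genes at 2 or above. In KO cells it ran from 0.788 to 6.39, with a median of 1.55 and 8 genes at 2 or above.

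Pdia6, which also acts on IRE1, was at 64.4, 58.9, 54.4 and 52.4 in untreated control cells and at 123, 110, 130 and 132 with IL4. The KO values were 70.4, 57.2, 47.6 and 56.4 untreated and 157, 137, 112 and 133 with IL4. The IL4 and untreated libraries did not overlap, and the log2 differences were 1.10 ± 0.11 and 1.21 ± 0.11. P4hb rose by 0.80 and 0.72 and Pdia3, the isomerase that works with calreticulin, by 0.74 in both genotypes.

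The pair of oxidases that recharge disulfide isomerases differed. Ero1lb rose by 0.43 ± 0.08 in control cells (adjusted p = 0.0001475) and by 0.60 ± 0.08 in KO cells (adjusted p = 1.279e-06). In control cells the call of Ero1lb was lost without rescaling (adjusted p = 0.3661). Ero1l, its hypoxia-inducible paralog, had differences of 0.09 and 0.16, which did not pass, though the difference in KO cells did in the block with KO rosiglitazone libraries as mice 2 to 4 (adjusted p = 0.008647). Pdia5, outside the test for its low level, was between 0.685 and 1.01 in control IL4 libraries and between 0.746 and 1.22 in KO IL4 libraries, all above the highest library without IL4, at 0.682. That order rests on the rescaling. In the deposited values control IL4 2, a library of low FPKM sum, was at 0.4039 and KO DMSO 1 at 0.7719.

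Of the 3 tested genes of stress sensing, Xbp1 passed in both genotypes and Ern1 and Atf6 in neither. Xbp1, the transcription factor activated when IRE1 splices its mRNA, was at 46.5, 50.4, 46.2 and 45.6 in untreated control cells and at 70.7, 70.0, 75.1 and 74.9 with IL4. Without IL4 the KO libraries were at 51.7, 44.0, 35.4 and 42.3, and with it at 63.2, 58.7, 46.6 and 54.3. The groups did not overlap in control cells and did overlap in KO cells. A gene-level value cannot separate spliced from unspliced Xbp1.

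The Xbp1 rise was 0.61 ± 0.09 in control cells (adjusted p = 8.674e-06) and 0.36 ± 0.09 in KO cells (adjusted p = 0.004871). Without rescaling the Xbp1 rise passed in neither genotype (adjusted p = 0.2065 in control and 0.07292 in KO cells). In KO cells it also did not pass without the 3 libraries of low FPKM sum (0.24, adjusted p = 0.1275) or when only the 2 groups compared were fitted (adjusted p = 0.1347). Ern1, which encodes IRE1, had differences of 0.09 (adjusted p = 0.7682) and -0.02 (adjusted p = 0.9679), and the sign of each changed without rescaling.

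Atf6, which encodes the sensor of that name, was at 14.9, 15.7, 18.2 and 16.6 in untreated control cells and at 12.6, 13.7, 14.1 and 13.1 with IL4. KO libraries had 13.8, 16.1, 21.4 and 14.2 untreated and 12.0, 12.4, 15.3 and 11.9 with IL4. All 4 control IL4 libraries were below all untreated ones, as was the case in this direction for 15.3% of all tested genes, and KO libraries overlapped. The log2 differences were -0.27 ± 0.12 (adjusted p = 0.1261) and -0.31 ± 0.12 (adjusted p = 0.08139). With the replicate number as a block, the difference in KO cells passed (adjusted p = 0.03542), as it did without KO untreated library 1 (adjusted p = 0.04231) or KO IL4 library 3 (adjusted p = 0.03419). In control cells it passed when only the groups compared were fitted (adjusted p = 0.01543).

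In the degradation pathway 4 of 6 tested genes rose in control cells and 3 in KO cells. Herpud1, a membrane organiser of the degradation complex, rose by 0.69 and 0.57, and Sel1l, its adaptor, by 0.43 and 0.38. Derl2, a Derlin, rose by 0.32 and 0.30. In control cells the Herpud1, Sel1l and Derl2 calls were lost without rescaling (adjusted p = 0.08488, 0.3871 and 0.664). In KO cells the Derl2 call was lost without rescaling (adjusted p = 0.07545), without the 3 libraries of low FPKM sum (0.18, adjusted p = 0.1655) and when only the groups compared were fitted (adjusted p = 0.136), which also ended the Sel1l call there (adjusted p = 0.05837). Syvn1 rose by 0.40 ± 0.11 in control cells (adjusted p = 0.01069), a call lost without rescaling (adjusted p = 0.3387) or without control IL4 2 (0.33, adjusted p = 0.05277). Its difference in KO cells was 0.31 ± 0.11 (adjusted p = 0.05296), or an adjusted p of 0.03941 with the replicate number as a block.

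Edem1, a lectin that routes glycoproteins to degradation and a common readout of XBP1 activity, was at 46.4, 42.5, 55.1 and 48.6 in untreated control cells and at 44.9, 49.4, 48.4 and 43.6 with IL4. The KO values were 48.6, 49.4, 60.05 and 45.6 untreated and 49.9, 48.0, 56.8 and 47.6 with IL4. The groups overlapped throughout. Its log2 difference was -0.04 in control cells, with a 95% interval of -0.25 to 0.17, and -0.01 in KO cells, from -0.21 to 0.20. Derl1 did not pass either, at 0.05 and 0.12.

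All 6 translocon genes rose in both genotypes. Sec61a1, the pore subunit, rose by 0.72 ± 0.09 (adjusted p = 5.18e-07) and 0.58 ± 0.09 (adjusted p = 1.442e-05), from 36.2 ± 1.99 to 60.2 ± 3.75 in control cells (SD, n = 4). The small subunits Sec61b and Sec61g rose by 0.62 and 0.55 in control cells and by 0.75 and 0.52 in KO cells. In control cells all 6 translocon calls were lost without rescaling (adjusted p from 0.05724 for Sec61a1 to 0.4033 for Ssr3). The Sec61g call in KO cells was lost without the 3 libraries of low FPKM sum (0.37, adjusted p = 0.1194), when only the groups compared were fitted (adjusted p = 0.1543), and without KO untreated 3 (0.33, adjusted p = 0.08232) or KO IL4 1 (0.40, adjusted p = 0.08158). The translocon-associated proteins Ssr1, Ssr2 and Ssr3 rose by between 0.52 and 0.69 in control cells and by between 0.58 and 0.64 in KO cells.

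The 4 signal peptidase genes split evenly. Spcs2 and Spcs3, accessory subunits, rose by 0.64 and 0.56 in control cells and by 0.70 and 0.75 in KO cells. Spcs1 had differences of 0.05 and 0.24, and Sec11c, a catalytic subunit, of -0.13 ± 0.23 and -0.05 ± 0.23, none of which passed. Sec11c was at 108, 103, 79.3 and 101 in untreated control cells and at 94.96, 85.1, 83.2 and 91.8 with IL4. In KO cells it ran from 66.7 to 141 untreated and from 71.5 to 142 with IL4, the widest spread of the set in rescaled FPKM between untreated KO libraries after Calr.

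Set beside the promoter elements, the 9 tested genes with a full ERSE all rose in control cells and 8 rose in KO cells, with median log2 differences of 0.91 and 0.83. Of 20 tested genes whose window lacks it, 15 and 14 rose, with medians of 0.54 in both genotypes, and Pdia4 is among them. The 9 tested genes without a window had 5 and 6 that rose.

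Counted by libraries, 29 genes had all control IL4 libraries above all untreated ones, against 15.8% of all tested genes. In KO cells 23 did, against 9.58%.

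**Figure D4:**
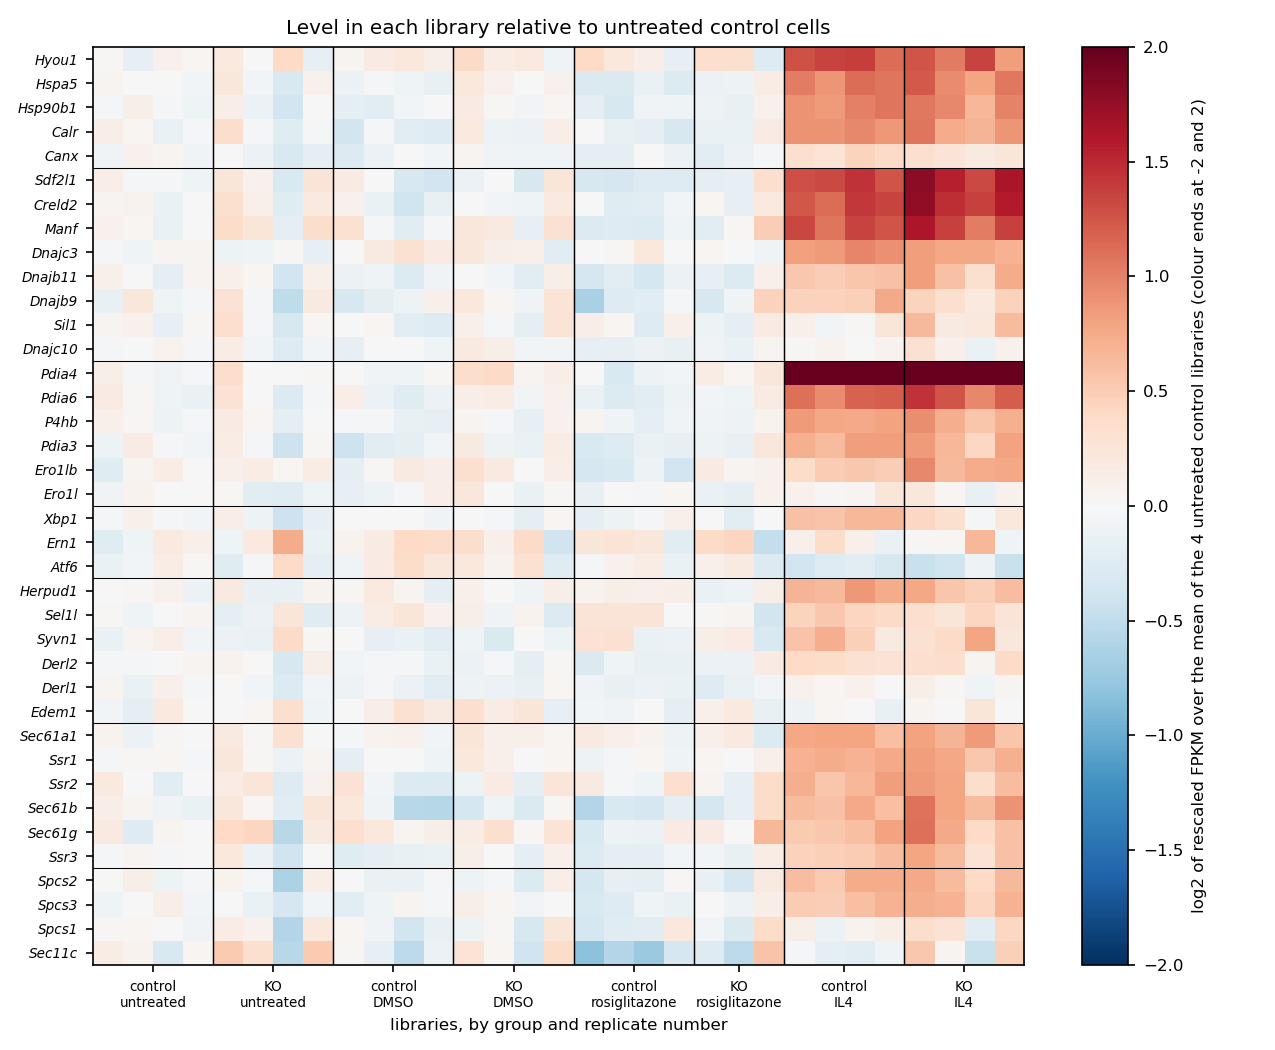
Each cell gives the log2 ratio of the rescaled FPKM of a gene (rows, by role) in a library (columns, by group) to its mean in untreated control cells; colours saturate at -2 and 2. The 8 columns of IL4 libraries are red for most rows, and Edem1, Derl1, Ern1 and Sec11c are among the rows that are not.

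The response to IL4 was compared between genotypes directly. None of the 38 genes passed, where 0.697% of all tested genes did, and by limma 0 had an unadjusted p under 0.05, where 5.13% of all tested genes did. The KO minus control difference of the log2 response ran from -0.26 (Hyou1) to 0.31 (Sil1). All 95% intervals lay between -0.64 and 0.76, and 29 of 38 lay within 0.5 on either side of 0. For Hspa5 the interval was -0.29 to 0.26 and for Pdia4 it was -0.12 to 0.42. For Xbp1 the difference was -0.26 ± 0.13 (adjusted p = 0.9999). A missed threshold does not show that the responses were alike, and the intervals give the range the data allow.

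Few genes of the set passed between genotypes. None passed between KO and control cells untreated (4.34% of all tested genes) or with DMSO (3.53%). By limma 0 and 3 of the 38 had an unadjusted p under 0.05, where 16.5% and 14.4% of all genes did. Median log2 differences of the 38 were -0.0025 untreated, 0.09 with DMSO, 0.12 with rosiglitazone and -0.02 with IL4. Those of all tested genes lay between -0.0038 and 0.0065. Summed levels with DMSO were 1671.7 ± 27.1 in control and 1831.7 ± 127 in KO cells (SD), which overlapped. With rosiglitazone they were 1606.9 ± 25.9 and 1765.3 ± 178, at most 1631.5 in control and at least 1644.5 in KO libraries. The sums were not tested. With rosiglitazone 1 gene passed (11.7%) and with IL4 2 did (10.8%). The genes next described, apart from these, did not pass and are given by their values.

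In untreated cells Canx was at 128, 143, 140 and 129 in control and at 136, 124, 110 and 119 in KO cells, which overlapped. Spcs3 was at 34.1, 36.1, 39.4 and 34.9 in control and at 36.0, 32.9, 28.6 and 34.9 in KO cells, also overlapping. Ero1l and Sec61a1 overlapped likewise, Ero1l between 9.65 and 10.6 in control and 8.55 and 10.2 in KO cells, and Sec61a1 between 33.3 and 37.9 in control and 36.4 and 44.8 in KO cells. The low end of Canx and Spcs3, and the high end of Sec61a1, came from KO library 3.

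With DMSO, Pdia4 was at 23.4, 22.1, 22.0 and 23.7 in control and at 29.7, 30.4, 24.2 and 25.4 in KO cells, with the KO libraries all higher. Hspa5 was at 171, 181, 175 and 168 in control and at 216, 197, 185 and 198 in KO cells, again with no overlap. These 2 were the genes of the set whose KO libraries all lay above the control libraries with DMSO, a pattern held by 3.94% of all tested genes. Calr, Ssr1 and Pdia3 overlapped, Calr at 175, 220, 196 and 189 in control and 260, 211, 209.5 and 248 in KO cells.

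With rosiglitazone 5 genes had all KO libraries above all control libraries, namely Hspa5, Sdf2l1, Pdia4, Pdia6 and Ero1lb, as did 8.62% of all tested genes. Pdia4 was at 23.1, 18.9, 21.7 and 22.3 in control and at 25.7, 23.8 and 27.3 in KO cells. Hspa5 was at 153, 152, 169 and 154 in control and at 172, 174 and 206 in KO cells. Sel1l was at 28.0, 27.9, 27.9 and 23.6 in control and at 23.8, 24.2 and 18.2 in KO cells, which overlapped. With IL4, Sil1 was at 11.3, 10.2, 10.8 and 12.6 in control and at 16.7, 12.0, 12.3 and 16.5 in KO cells, which overlapped too.

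The sensors overlapped between genotypes with DMSO and with rosiglitazone. With DMSO, Xbp1 ran from 45.1 to 47.6 in control and from 41.3 to 48.3 in KO cells, Ern1 from 4.598 to 5.76 and from 3.30 to 5.66, and Atf6 from 15.5 to 21.004 and from 13.8 to 20.2. With rosiglitazone Xbp1 ran from 41.9 to 50.5 and from 40.7 to 47.1.

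With IL4, Xbp1 was lower in KO cells, at the per-library values given above, with a log2 difference of -0.39 ± 0.09 (adjusted p = 0.004226). The 4 KO libraries lay below the 4 control libraries. Without rescaling the difference was -0.25 and did not pass (adjusted p = 0.7805).

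Ero1lb was higher in KO cells with rosiglitazone and with IL4. With rosiglitazone it was at 5.50, 5.62, 6.47 and 5.32 in control cells and at 7.82, 7.25 and 7.40 in KO cells, with no overlap. The log2 difference was 0.34 ± 0.08 (adjusted p = 0.006512). With IL4 it was at 9.00, 9.87, 10.1 and 9.78 in control and at 13.5, 10.9, 11.6 and 11.9 in KO cells, a difference of 0.28 ± 0.08 (adjusted p = 0.01785). The IL4 call was lost without control library 1 (adjusted p = 0.06649) or without KO library 1 (adjusted p = 0.09469), and both calls were lost without rescaling. The rosiglitazone call was also lost when only the groups compared were fitted (adjusted p = 0.06774).

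Rosiglitazone against DMSO changed 1 gene of the set in control cells, where 4.46% of all tested genes passed, and 0 in KO cells, where no tested gene passed. In KO cells 0 of the 38 had an unadjusted p under 0.05 in limma, and 1.46% of all genes did. Ero1lb fell in control cells, from 6.17, 7.10, 7.89 and 7.61 with DMSO to the rosiglitazone values above, and the groups overlapped. The log2 difference was -0.28 ± 0.08 (adjusted p = 0.03236). The call was lost in 6 of the 8 fits that left out a library, without rescaling and when only the groups compared were fitted.

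Edem1 was at 48.5, 52.7, 59.6 and 54.5 with DMSO and at 46.1, 46.0, 48.2 and 42.7 with rosiglitazone in control cells, and did not pass. Its libraries did not overlap, by a narrow gap (at most 48.19 with rosiglitazone, at least 48.51 with DMSO). The share of all tested genes with this pattern is not given here. Sec11c in control cells was at 98.9, 87.5, 68.3 and 90.3 with DMSO and at 55.4, 65.4, 58.4 and 77.5 with rosiglitazone, which overlapped and did not pass. Manf was at 13.5, 10.8, 9.37 and 10.8 with DMSO and at 9.07, 9.20, 9.06 and 10.4 with rosiglitazone, overlapping as well. The genotypes' responses to rosiglitazone differed in 0 of the 38 genes, where 0.804% of all tested genes passed. By limma 1 of the 38 had an unadjusted p under 0.05, against 6.02% of all. DMSO against untreated cells gave 0 genes of the set and 0% of all tested genes in each genotype, with 1 and 0 of the 38 at an unadjusted p under 0.05 in limma, where 6.59% and 4.96% of all genes were. In control cells Dnajc3 was at 17.8, 17.2, 19.1 and 18.9 untreated and at 18.4, 20.6, 22.5 and 20.5 with DMSO, which overlapped.

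Further genes of the secretory pathway were read from lists by role, against the 11.9% of all tested genes that rose with IL4 in control cells and the 10.1% that rose in KO cells. Of 16 tested oligosaccharyltransferase and glycoprotein folding genes, 10 rose with IL4 in each genotype, among them Rpn1 (0.72 and 0.78) and Ddost (0.57 and 0.54), subunits of the enzyme that attaches N-glycans, and the median differences of the list were 0.36 and 0.38. Of 21 vesicle coat and cargo export genes 11 rose in control and 13 in KO cells, among them Lman1 (0.66 and 0.64), a cargo receptor for glycoproteins, with medians of 0.35 and 0.25. Of 16 further redox and proline isomerase genes 6 rose in each, led by Txndc11 (1.01 and 0.82), with medians of 0.17 and 0.16. Of 14 further translocon and signal recognition genes 6 and 5 rose, among them Sec63 (0.51 and 0.43), a partner of the Sec61 channel, with medians of 0.25 and 0.26.

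Of 17 further degradation genes 5 and 2 rose, with medians of 0.08 and 0.07. The share in KO cells was near that of all tested genes. Of the 9 tested genes of the PERK and ATF4 arm, the third branch of the unfolded protein response, 2 rose and 0 fell in control cells, Atf4 (0.38) and Ddit3 (0.33). In KO cells 1 rose, Atf3 (0.56), and 1 fell, Sesn2 (-0.45), where 9.38% of all tested genes fell, and the medians were 0.19 and -0.01. In KO cells both counts were near the shares of all tested genes. Of 5 further sensors and proteases, 1 rose in control cells, Creb3l2 (0.65), a membrane-bound transcription factor, and 0 in KO cells, with medians of 0.05 and -0.05. In lists this short such counts do not stand apart from the shares of all tested genes. Between genotypes P4ha2, a collagen prolyl hydroxylase of the ER, was higher in KO cells in all 4 treatments, at 0.50 untreated, 0.69 with DMSO, 0.87 with rosiglitazone and 0.54 with IL4.

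Markers of other cells were read beside these results. The 6 macrophage markers found summed to between 976 and 1361 rescaled FPKM. Eosinophil markers had median sums of 7.855 untreated and 5.763 with IL4 in control cells, and 6.813 and 10.55 in KO cells. In the same order, neutrophil medians were 26.35, 22.99, 21.05 and 16.52, and dendritic cell medians 0.1948, 0.47, 0.4514 and 0.9266. Sums of T and NK cell markers and of mast cell markers were at most 0.185 and 0.594. Differences in these sums were not tested. Of 10 plasma and B cell markers found, 4 were tested. The sum of all 10 ran from 71.3 to 133 with IL4 and from 75.8 to 133 untreated, most of it Sdc1, which macrophages also express. Of the 4, Irf4, a transcription factor of plasma cells and of IL4-treated macrophages, rose with IL4 by 2.60 and 2.58 on the log2 scale, and the other 3 did not pass. It was also higher in KO than in control cells in all 4 treatments, by between 0.39 and 0.55. Jchain, which defines plasma cells, was at most 0.17 in 27 libraries, and above it in KO untreated 3 (2.28), KO DMSO 3 (8.52), KO rosiglitazone 2 (4.58) and KO IL4 3 (0.44). In each of the 4 KO groups the library with the highest Jchain had the lowest summed level of the set, for example 1506.5 in KO untreated 3 and 2660.1 in KO IL4 3. These 4 libraries were each most like libraries numbered 3 of other KO groups (mean correlations of 0.741 to 0.785). They may therefore come from 1 mouse and cannot be read as 4 independent cases.

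Summed levels of 11 mesothelial and fibroblast markers ran from 2.28 to 36.6 in control libraries and from 19.7 to 123 in KO libraries. With IL4 all 9 tested markers of this list had differences above 0 in both genotypes, with medians of 0.39 in control and 0.21 in KO cells. Krt8 (0.60 and 0.98) and Krt18 (0.79 and 1.17) rose in both genotypes and Lrrn4 (1.10) in KO cells. The collagens Col1a1 and Col1a2 and Dcn did not pass, and their libraries with and without IL4 overlapped. The part of these markers in the IL4 and KO comparisons, including P4ha2, was not tested. Gene-level Pparg was at 47.1, 53.4, 49.2 and 48.7 in untreated control and 43.3, 50.8, 37.5 and 49.4 in untreated KO cells, which overlapped. This does not check the genotype labels, since the deleted part is not given. KO untreated 2 and 3 and control IL4 2 had the lowest sums of listed FPKM.

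Within the gene set, 10 genes overlap another gene of the table, among them Pdia4 (Mir704) and Hsp90b1 (1810014B01Rik), and whether strand was used in counting is not stated. Derl1, Sec61b, Sec61g and Spcs2 have near-identical copies in the annotation, and Ssr2 shares a stretch of 366 bases (98.6% identity) with the gene Rtraf. None of these is in the expression table under its annotated symbol, and how reads shared with them were counted is not stated.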

How the data were processed

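RNA-seq was measured in 31 libraries, of which 16 were of control and 15 of KO macrophages. The authors deposited FPKM values for 24302 symbols, and the submitters' processing notes name TopHat2, featureCounts, edgeR and mm9 without their versions or order. Neither read counts nor depth per library were stated, so no counting interval was computed. The 25 symbols that are dates were left out. Testing was limited to the 10327 genes that reached 1 FPKM in 3 or more libraries.

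Each library was rescaled by the median ratio to the geometric mean over 10215 genes without a zero. limma 3.58.1 in R 4.3.3 was fitted to log2(rescaled FPKM + 1) with a pseudocount of 1, a mean per group over all 31 libraries and an intensity trend, and two-sided p was adjusted by Benjamini-Hochberg over all tested genes in each of 12 comparisons. The fit was tested on simulated data. Fold changes on this scale understate those of low genes. The labels do not tie each library to a mouse, so p-values measure the spread between libraries.

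Same-numbered libraries deviated together in KO cells between untreated and IL4 (correlations of 0.17 to 0.74) and in control cells between DMSO and rosiglitazone (0.207 to 0.758). In control cells between untreated and IL4 they did not in every pair (lowest -0.199), nor in KO cells between DMSO and rosiglitazone (lowest -0.678). All 3 KO rosiglitazone libraries were most like the next number up in the other KO groups.

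Genes described singly were, for each comparison, the members with the smallest p-values, together with Hspa5, Xbp1, Ern1 and Atf6; other members are given by role. The members, lists and roles were chosen with earlier results of these data known. Promoter windows come from RefSeq, GRCm38.p6, another build than the authors', and 2 members were matched through newer symbols. Copies were searched with minimap2 2.31-r1302 (at least 300 aligned bases and 95% identity). Alternatives were no rescaling, a pseudocount of 0.1, no filter or a filter of 5 FPKM, fits of the groups compared only, replicate blocks, zeros as missing, 3 libraries of low FPKM sum left out, and each library left out.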

Additional observations from a re-analysis of the deposited data

Results flagged for a closer look

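Values of 28 genes and of the summed set were searched in the 7 groups of 4 libraries, or 203 cases, for a library whose gap to its nearest neighbour took up more of the group's range than Dixon's critical value for 4 samples allows. Chance flags about 1 in 20 such groups, and 13 were found.

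Among IL4 libraries of KO cells, number 3 stood apart in 4 genes. It was high for Ern1 (6.895, nearest 4.503) and Atf6 (15.27, nearest 12.37), and low for Spcs3 (48.93, nearest 58.3) and Derl2 (13.28, nearest 16.22). Among control libraries with rosiglitazone, number 4 was low for Ern1 (3.765) and Sel1l (23.59) and high for Manf (10.36), and number 3 was high for Hspa5 (168.9) and Dnajc3 (21.15). Single cases were Canx in KO DMSO 1 (140.1), Sec61a1 in control IL4 4 (54.61), Pdia4 in KO untreated 1 (29.67) and the summed set in control DMSO 2 (1712). All values are rescaled FPKM.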

How the results depend on the processing

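With IL4, every gene of the set that passed under an alternative was higher, except Atf6, which passed as lower under replicate blocks, in control cells when only the groups compared were fitted, and in KO cells without 1 of 2 libraries. The count of genes that passed in control cells, 29, fell to 10 without rescaling, and all 10 were higher. Without rescaling the counts for KO against control cells with rosiglitazone, KO against control cells with IL4 and rosiglitazone against DMSO in control cells were 0, 0 and 0, in place of 1, 2 and 1. With only the groups compared in the fit, the counts with rosiglitazone between genotypes and against DMSO in control cells were 0 and 0. The all-gene median without rescaling was 0.21 for IL4 in KO cells and -0.20 for KO against control cells untreated, and all genes passing fell from 2373 to 698 for IL4 in control cells and from 2015 to 862 in KO cells.

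With a replicate block on the number across genotypes, 2 genes passed between genotypes with rosiglitazone. With the KO rosiglitazone libraries taken as mice 2 to 4, a replicate block gave 3 genes for rosiglitazone against DMSO in control cells. In control cells that block also gave Atf6 an adjusted p of 0.004177 with IL4. That block gave 33 genes in place of 28 for IL4 in KO cells, with Dnajb9, Dnajc10, Ero1l, Syvn1 and Atf6 added. Other counts of members moved by at most 1.5 times under the blocks. By number, 25 of 28 libraries of the other 7 groups were most like same-numbered ones, as were 0 of 3 with rosiglitazone in KO cells. Those 3, titled 1, 2 and 3, were most like numbers 2, 3 and 4 of the other KO groups (mean correlations of 0.305, 0.785 and 0.71). The block that took them as mice 2 to 4 follows this match, which the labels do not state.

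Leaving out 1 library gave 28 to 29 genes for IL4 in control cells, 26 to 30 in KO cells, 1 to 3 between genotypes with IL4, and 0 to 1 for rosiglitazone against DMSO in control cells. The Ern1 difference with IL4 in control cells was -0.011 without rescaling. In KO cells it was 0.20 without rescaling, 0.22 without the 3 libraries of low FPKM sum, and -0.16 to 0.14 over the fits that left out a library. The cause was not tested. Depth is unknown, so the precision of low genes such as Pdia5 and Syvn1 cannot be set against counting error.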
